A study of Homo sapiens with 6 samples.

Results

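The kinesin genes were taken as every protein-coding gene whose symbol is KIF or KIFC followed by a number, which gave 42 of the 28395 genes in the count table. Pseudogenes, antisense and divergent RNAs and the non-motor genes KIFAP3 and KIFBP were left out by this rule, as were kinesin motors with other symbols, such as CENPE and STARD9. Libraries came from NCI-H146, an established small-cell lung cancer (SCLC) cell line, which the labels also spell NIH-H146. Cells had been transfected with negative control siRNA (labelled WT) or with an siRNA against KIFC1 (labelled KIFC1 knockdown), and RNA was taken at day 2. Each group held 3 biological replicates, 1 siRNA stood for the knockdown, and every sample was transfected, so no untransfected cells were compared. The question asked of these libraries was whether other kinesins changed when KIFC1 was reduced.

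Kinesins are motor proteins that hydrolyse ATP to move along microtubules or to take their ends apart. Most walk toward the growing plus end and carry vesicles, mitochondria or protein complexes, while others build the mitotic spindle, move chromosomes or close off the midbody in cytokinesis. KIFC1, also called HSET, belongs to the kinesin-14 subfamily, walks toward the minus end, and draws extra centrosomes together into 2 spindle poles in cancer cells. KIF11, a kinesin-5, slides antiparallel microtubules apart and works against it.

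Total counts ran from 15392374 to 17754458 per library, and the kinesin genes took 0.346% to 0.446% of them. The line kept its neuroendocrine label, with INSM1 at 612 to 817 CPM (counts relative to the TMM-scaled library size), while NEUROD1, POU2F3 and YAP1 stayed at or under 0.460 CPM in every library. Of the other neuroendocrine genes, DLL3, SYP and NCAM1 were detected at 53.3 CPM or more in each library. CHGA read 8.81, 6.50 and 7.72 CPM in control and 9.25, 53.8 and 29.5 CPM in KIFC1 siRNA libraries, higher without overlap. Its log2 fold change was 2.00 ± 0.66 (SE), with edgeR adjusted p-values of 0.436 and, with the replicate number as a block, 0.482. Among genes of other cells, PTPRC and COL1A1 lay at 1.31 to 3.62 CPM and PECAM1 at 0.240 to 0.447 CPM, and the epithelial gene EPCAM at 481 to 562 CPM. With the replicate number as a block in edgeR, NCAM1 was called lower in KIFC1 siRNA libraries (log2 fold change -0.42, adjusted p = 0.000646), and its part in the kinesin values was not tested. Libraries with the same replicate number deviated together, with correlations of 0.385, 0.313 and 0.381 across 13919 genes. Results with the replicate number as a block are therefore given where they differ. Of the libraries left out 1 at a time, the KIFC1 siRNA library of replicate 3 gave the most calls when absent. Without it, the genes called at an adjusted p under 0.05 went from 48 to 194 higher and from 55 to 274 lower. Across all such fits the calls ran from 9 to 194 higher and from 15 to 274 lower. What made the calls depend on this library was not tested.

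Of the 42 kinesin genes, 34 were tested: 33 that passed the filter on low counts, and KIFC1, kept below it as the targeted gene. None of the 33 passed an adjusted p of 0.05 in either direction. Over all 14777 genes tested, 0.325% were called higher and 0.372% lower in that fit, so a family of this size would hold few calls at that rate. At an unadjusted p under 0.05, KIF20A was the only member higher, against 4.72% of all genes. Besides the targeted KIFC1, the members lower were KIF3B, KIF3C and KIF21A, 3 of the 33, against 4.55% of all genes. DESeq2 called none of the 33 in either direction and gave KIFC1 no adjusted p. With the replicate block, edgeR called the targeted KIFC1 lower and 3 of the 33 (KIF3B, KIF21A and KIF1B), against 3.07% of all genes. It called 0 members higher, where 2.75% of all genes were called higher.

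KIFC1 (gene ID 3833, chr6:33391461-33409896, GRCh38) held few reads even in control cells. It was counted 14, 4 and 14 times in the control libraries and 1, 1 and 0 times in the KIFC1 siRNA libraries. The groups did not overlap, and the level went from 0.617 ± 0.320 to 0.0432 ± 0.0374 CPM (SD, n = 3 each). Summed over libraries the 32 control reads and 2 knockdown reads gave a level 14.9-fold lower, with an exact 95% counting interval of 3.81 to 129. The edgeR log2 fold change was -3.66 ± 0.82 (SE), with an adjusted p of 0.0739 that fell to 0.00459 with the replicate block. Leaving out 1 library at a time, the adjusted p ran from 0.0675 (without KIFC1 siRNA replicate 3, at -3.12) to 0.370 (without control replicate 3, at -3.47).

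Per kilobase of canonical transcript, KIFC1 ranked 33 of the 34 tested kinesins in control cells, at 0.258 CPM per kb. The other 12 tested mitotic kinesins had a median of 19.0 CPM per kb, 73.7 times that level, and a range of 6.37 (KIF15) to 97.0 CPM per kb (KIF22). Every 32-base word of the KIFC1 transcript within its genomic span also occurred on the alternate sequences that GRCh38 carries beside the chromosomes. KIF26B was the other member with over 90% of its words there, at 93.6%, and its control level was 0.379 CPM per kb. What part of either low level came from how reads with several placements were counted was not tested.

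Most promoters of mitotic kinesins held 2 short motifs that most transport kinesins lacked. The CHR (cell cycle genes homology region) is a site where the MuvB complex binds promoters of genes expressed in G2 and M phase, and it was searched as TTTGAA or TTCGAA on both strands. The CCAAT box, bound by NF-Y, was searched as CCAAT on both strands. A CHR and a CCAAT box can share at most their end bases, and none overlapped in the members. Promoters ran from 250 bases before to 50 bases after the start site in RefSeq on GRCh38.p14, and 34 of the 42 members had one. KIFC2, KIFC3, KIF5A, KIF13B, KIF19, KIF21B, KIF26B and KIF27 had none in the table.

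Each gene counted once, with a match in any of its promoters, so genes with several start sites had more places to match. A CHR occurred in 11 of 15 mitotic kinesin genes (73.3%) and 1 of 12 transport kinesin genes (8.33%). The share over all 27305 genes with a promoter was 19.5%. A CCAAT box occurred in 11 of 15 mitotic genes, 4 of 12 transport genes, and 39.7% of all. Both in the same promoter occurred in 10 of 15 mitotic genes (66.7%) and in 1 transport gene, KIF5B. The share was 7.85% of all genes with a promoter, or 6.58% of the tested ones. In the 10 mitotic promoters the CCAAT box lay upstream of the CHR, with 9 to 122 bases and a median of 29.5 bases between their starts. These counts hold both KIF4A and its intronless copy KIF4B, each with 24 bases between the starts. KIF2A, KIF2B and KIF2C, the microtubule-depolymerising kinesin-13 genes of the mitotic group, had neither motif in this window. KIF20A had 2 CCAAT boxes and no match to the CHR letters. A match is a description of the letters, and no binding was measured here.

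The stretches from 120 bases before to 29 bases after the start site are given for 4 members. They are the targeted gene, the motor that works against it, the mitotic kinesin with the largest log2 fold change, and the transport kinesin with the lowest adjusted p. Capitals mark a CCAAT box (CCAAT or ATTGG) or a CHR (TTCAAA is TTTGAA on the other strand).
KIFC1 promoter, chr6:33391703-33391852, plus strand: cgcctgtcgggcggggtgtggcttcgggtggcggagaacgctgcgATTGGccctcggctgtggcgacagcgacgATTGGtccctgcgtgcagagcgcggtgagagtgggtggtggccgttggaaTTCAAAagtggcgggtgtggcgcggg
KIF11 promoter, chr10:92593010-92593159, plus strand: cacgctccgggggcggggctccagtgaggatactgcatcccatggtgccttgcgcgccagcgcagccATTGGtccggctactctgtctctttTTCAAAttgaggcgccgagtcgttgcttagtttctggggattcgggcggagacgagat
KIF20A promoter, chr5:138178992-138179141, plus strand: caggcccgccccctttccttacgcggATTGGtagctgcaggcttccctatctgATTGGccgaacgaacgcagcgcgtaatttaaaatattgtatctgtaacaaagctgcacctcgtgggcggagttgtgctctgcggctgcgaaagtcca
KIF3B promoter, chr20:32277531-32277680, plus strand: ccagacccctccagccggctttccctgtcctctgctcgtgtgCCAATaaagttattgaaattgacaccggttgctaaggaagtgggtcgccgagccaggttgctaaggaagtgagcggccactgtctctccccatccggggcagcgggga
KIFC1 carries CCAAT boxes at -75 and -46 and a CHR at 4, counted from 0 at the start site. KIF11 has a CCAAT box at -53 and a CHR at -28. KIF3B, a transport motor, has a CCAAT box at -78 and no CHR.

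The other kinesin-14 genes showed no detectable rise. KIFC2, which runs toward the minus end in neurites, read 68.1, 82.8 and 89.4 CPM in control and 67.5, 98.4 and 50.5 CPM in KIFC1 siRNA libraries. The knockdown libraries spanned the control range on both sides, and the log2 fold change of -0.15 ± 0.20 had an upper 95% limit of 1.22-fold. Without KIFC1 siRNA replicate 3, the library at 50.5 CPM, it was 0.05. KIFC3, a minus-end motor of the Golgi and cell junctions, read 3.84, 3.50 and 3.43 CPM in control and 3.19, 4.67 and 3.06 CPM in KIFC1 siRNA libraries. These ranges overlapped as well, with a log2 fold change of 0.02 ± 0.23 and an upper limit of 1.44-fold. KIF25 had no reads in any library, where 3 reads would be 0.169 to 0.195 CPM.

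Among the spindle motors that push poles apart, KIF11 read 150, 124 and 134 CPM in control and 153, 129 and 183 CPM in KIFC1 siRNA libraries. It was higher in each numbered pair, but the gap of 0.44 on the log2 scale in pair 3 was far wider than the 0.03 and 0.05 of the others. The log2 fold change of 0.19 ± 0.13 had an adjusted p of 0.776, a 95% interval of 0.928 to 1.39-fold, and a value of 0.05 without KIFC1 siRNA replicate 3. KIF15, which backs up KIF11 in keeping spindles bipolar, read 29.9, 28.5 and 32.7 CPM in control and 26.0, 24.4 and 35.7 CPM in KIFC1 siRNA libraries. Only the replicate 3 library lay above the controls, and the log2 fold change was -0.08 ± 0.15.

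The kinesin-6 genes act at the central spindle and in cytokinesis. KIF20A (MKLP2), which brings Aurora B to the midzone, read 60.1, 56.9 and 56.0 CPM in control and 72.7, 62.9 and 70.0 CPM in KIFC1 siRNA libraries. Its groups did not overlap, and it was higher in all 3 pairs. The log2 fold change was 0.25 ± 0.11, with an unadjusted p of 0.0380 and adjusted p-values of 0.495 in edgeR and 0.128 with the replicate block. KIF20A and KIF9 were the 2 members whose groups did not overlap upward, against 7.97% of all genes, and with KIF11 they were the 3 members higher in every pair, against 19.4% of all genes.

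KIF23 (MKLP1), the motor of centralspindlin, read 86.9, 82.9 and 84.2 CPM in control and 80.4, 77.7 and 88.8 CPM in KIFC1 siRNA libraries, a log2 fold change of -0.04 ± 0.10. KIF20B, which acts late in cytokinesis, read 73.9, 70.2 and 76.0 CPM in control and 72.4, 64.5 and 115 CPM in KIFC1 siRNA libraries. Its log2 fold change of 0.19 ± 0.18 came from the replicate 3 library and was -0.10 without it. The upper 95% limit of KIF20B, 1.50-fold, was the highest of the 12 mitotic kinesins.

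The chromokinesins, which sit on chromosome arms, did not pass either fit. KIF22 (Kid) went from 202 ± 7.94 to 179 ± 20.5 CPM, a log2 fold change of -0.18 ± 0.11. KIF4A went from 124 ± 3.35 to 120 ± 12.6 CPM, at -0.04 ± 0.11. KIF4B, an intronless copy of KIF4A, had 4 to 14 reads per library and was not tested. Because 25.9% of KIF4A's words and 22.6% of KIF4B's occurred elsewhere on the chromosomes, reads of the pair cannot be fully separated.

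The kinesin-8 and kinesin-13 motors shorten microtubules at their ends. KIF18A, which damps chromosome movements at the metaphase plate, went from 43.5 ± 1.64 to 46.9 ± 6.99 CPM, at 0.11 ± 0.13. KIF18B went from 79.3 ± 3.63 to 74.9 ± 9.07 CPM, at -0.08 ± 0.12. KIF2A, at spindle poles, went from 148 ± 8.86 to 143 ± 32.2 CPM, at -0.05 ± 0.15.

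KIF2C (MCAK), which corrects faulty kinetochore attachments, read 93.6, 93.4 and 90.3 CPM in control and 88.5, 79.7 and 81.2 CPM in KIFC1 siRNA libraries. It was lower without overlap, but by a log2 fold change of only -0.15 ± 0.10 and an adjusted p of 0.742. KIF14, a citron kinase partner in cytokinesis, went from 80.6 ± 7.87 to 71.6 ± 17.6 CPM, at -0.17 ± 0.16.

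As a group, the 12 mitotic kinesins other than KIFC1 had 4 positive and 8 negative log2 fold changes and a median of -0.04, against 0.01 over all genes tested. The median was 0.02 without KIFC1 siRNA replicate 2 and -0.10 without replicate 3, so its sign rested on a single library. Their summed level was 1173, 1118 and 1165 CPM in control and 1135, 1028 and 1251 CPM in KIFC1 siRNA libraries, a difference between means of -1.23%. MKI67, the proliferation marker, read 464, 411 and 556 CPM in control and 328, 318 and 514 CPM in KIFC1 siRNA libraries (adjusted p = 0.689, and 0.00914 with the replicate block), while TOP2A had a log2 fold change of 0.06 ± 0.15. In bulk RNA, fewer cells in mitosis and less RNA per cell cannot be told apart, and the part of MKI67's change in these values was not tested.

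**Figure D1:**
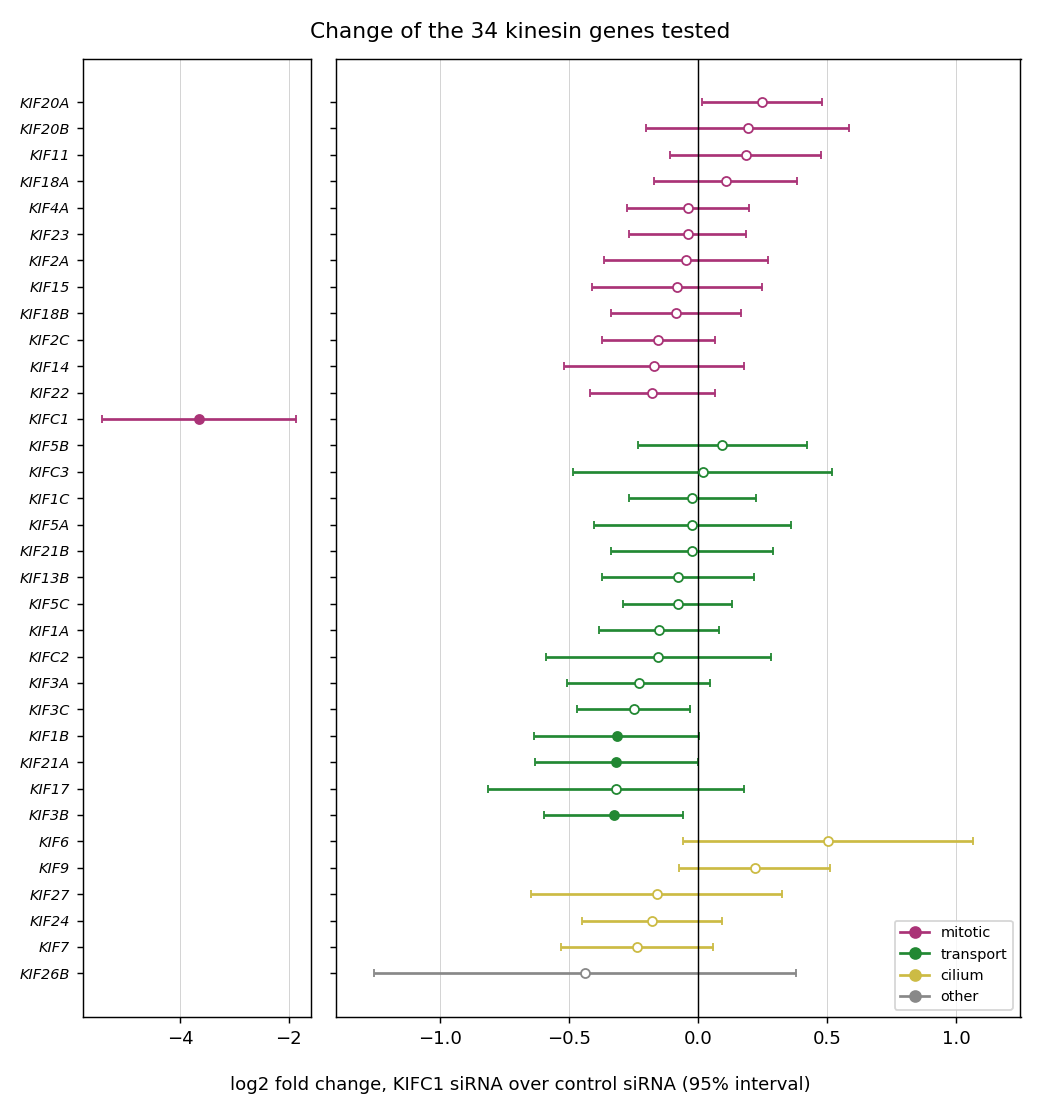
Log2 fold change of KIFC1 siRNA over control siRNA for the 34 kinesin genes tested, with 95% intervals from edgeR, grouped and coloured by role; filled points have an adjusted p under 0.05 with the replicate block. KIFC1 is shown on a separate scale at left, and the 4 filled points are KIFC1, KIF1B, KIF21A and KIF3B.

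The transport kinesins carry cargo along axons, cilia and the cytoplasm, and 13 of the 15 tested had a negative log2 fold change, with a median of -0.15. Without control siRNA replicate 3 these were 10 of 15 and -0.07. Of the 4 members called with the block, 3 lay here. Kinesin-2 is the heterotrimeric motor of intraflagellar and vesicle transport, in which KIF3A pairs with KIF3B or KIF3C. KIF3B read 204, 218 and 232 CPM in control and 159, 157 and 206 CPM in KIFC1 siRNA libraries. The groups overlapped only through the replicate 3 library. The log2 fold change was -0.33 ± 0.12, with an adjusted p of 0.394 that became 0.0110 with the replicate block. Without KIFC1 siRNA replicate 3 these were -0.47 and 0.0154. When each library was left out, KIF3B ran from -0.47 to -0.26, with edgeR adjusted p-values from 0.0154 to 0.968.

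KIF3C read 82.4, 87.1 and 88.7 CPM in control and 73.6, 69.1 and 74.6 CPM in KIFC1 siRNA libraries. It was the subunit whose groups did not overlap, at -0.25 ± 0.10, with adjusted p-values of 0.455 in edgeR and 0.108 with the block. KIF3A read 72.7, 75.0 and 80.4 CPM in control and 63.1, 55.4 and 76.0 CPM in KIFC1 siRNA libraries, at -0.23 ± 0.13 (adjusted p = 0.661, and 0.154 with the block). KIF17, the homodimeric kinesin-2 of dendrites and cilia, lay at 3.36 to 3.86 CPM in control and 2.33 to 3.42 CPM in KIFC1 siRNA libraries, at -0.32 ± 0.23.

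The kinesin-2 subfamily was singled out with its values seen, and its genes, read in the same libraries, are not independent of each other. All 4 kinesin-2 genes were lower in every pair, against 19.4% of all genes. Their median was -0.28, and the summed level of KIF3A, KIF3B and KIF3C was 360, 380 and 401 CPM in control and 296, 282 and 356 CPM in KIFC1 siRNA libraries. The knockdown sums lay below the control sums, at the nearest by 356 against 360 CPM, with a difference between means of -18.1%. This sum was also chosen with the values seen, and no share over all genes was computed for sums. Among single genes, 7.51% of all tested were lower without overlap. Of the summed genes, KIF3C was lower without overlap, and KIF3A and KIF3B overlapped. All tested genes of kinesin-3 (5), kinesin-4 (5) and kinesin-13 (3) also had negative log2 fold changes, and the 2 of kinesin-9 positive ones. KIFAP3, the accessory subunit that links KIF3 motors to cargo and is no motor itself, is named here after its values were seen. It had 17.1, 19.9 and 18.7 CPM in control and 17.9, 19.7 and 26.1 CPM in KIFC1 siRNA libraries, at 0.19 ± 0.15 (adjusted p = 0.803).

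KIF21A, a kinesin-4 that restrains microtubule growth at the cell cortex and in axons, read 143, 144 and 154 CPM in control and 108, 97.7 and 149 CPM in KIFC1 siRNA libraries. Replicate 3 again lay near the controls. The log2 fold change was -0.32 ± 0.14, with an adjusted p of 0.537 that became 0.0252 with the block. Without that library these were -0.52 and 0.00825. When each library was left out, KIF21A ran from -0.52 to -0.20, with edgeR adjusted p-values from 0.00825 to 0.99999. KIF1B, a kinesin-3 that carries mitochondria and synaptic vesicle precursors, read 74.7, 75.6 and 94.3 CPM in control and 59.0, 58.0 and 79.9 CPM in KIFC1 siRNA libraries. In both groups replicate 3 was highest. The log2 fold change was -0.31 ± 0.15, with an adjusted p of 0.550 that became 0.0299 with the block. Without KIFC1 siRNA replicate 3 these were -0.48 and 0.0306. When each library was left out, KIF1B ran from -0.48 to -0.20, with edgeR adjusted p-values from 0.0306 to 0.99999.

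Per kilobase of canonical transcript, the highest kinesins in control cells were KIF1A, KIF22, KIF5B, KIF5C and KIF3B, at 134, 97.0, 62.5, 39.9 and 35.7 CPM per kb. The order depends on the length used, since per kilobase of all annotated exons KIF22 was at 28.2 and KIF5C at 8.38 CPM per kb. KIF1A, the kinesin-3 motor of synaptic and dense-core vesicles, supplied 27.8% to 31.6% of the summed kinesin level in each library. It read 1162, 1158 and 1362 CPM in control and 1099, 1054 and 1164 CPM in KIFC1 siRNA libraries, at -0.15 ± 0.11 (adjusted p = 0.772). Of the conventional kinesin-1 heavy chains, KIF5B read 376, 347 and 377 CPM in control and 388, 299 and 488 CPM in KIFC1 siRNA libraries, at 0.09 ± 0.15. KIF5C, the neuronal form, read 276, 283 and 275 CPM in control and 245, 276 and 267 CPM in KIFC1 siRNA libraries, at -0.08 ± 0.10, although 48.2% of its words also lay on alternate sequences. KIF5A, KIF1C, KIF13B and KIF21B had log2 fold changes of -0.08 to -0.02, with adjusted p-values of 0.929 or more.

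Tested kinesins of the cilium and Hedgehog signalling had control means of 2.24 (KIF6) to 42.2 CPM (KIF24), and none passed in either fit. KIF9, of motile cilia, read 14.3, 14.8 and 14.1 CPM in control and 17.3, 18.1 and 15.0 CPM in KIFC1 siRNA libraries. Its groups did not overlap, at 0.22 ± 0.13 (adjusted p = 0.703). KIF6, the other kinesin-9, read 3.00, 1.81 and 1.90 CPM in control and 2.93, 3.42 and 3.18 CPM in KIFC1 siRNA libraries, where replicate 1 did not differ in the same direction as the others. Its log2 fold change of 0.51 ± 0.26 (adjusted p = 0.607) had the highest upper limit of the family, 2.09-fold.

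KIF7, a regulator of GLI factors at the cilium tip, read 15.0, 18.1 and 17.7 CPM in control and 13.7, 14.5 and 14.9 CPM in KIFC1 siRNA libraries, lower without overlap at -0.23 ± 0.14. Besides the targeted KIFC1, 3 of the 33 tested kinesins were lower without overlap (KIF3C, KIF7 and KIF2C), against 7.51% of all genes. In all 3 pairs, 14 of the 33 were lower, against 19.4% of all genes. KIF24 and KIF27 had log2 fold changes of -0.18 and -0.16, although 47.2% of KIF27's words occurred elsewhere on the chromosomes. KIF26B, a non-motile kinesin-11, had the lowest value after KIFC1, -0.44 ± 0.38, with 1.91 to 7.13 CPM across libraries. It ran from -1.05 without KIFC1 siRNA replicate 3 to -0.13 without KIFC1 siRNA replicate 2 or control replicate 3, so its rank rested on single libraries.

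The 8 members that were not tested added little. KIF12 and KIF25 had no reads, KIF13A had 2 to 8 reads per library, KIF16B and KIF19 up to 5, KIF26A up to 3, and KIF2B up to 1. No change in these genes was detectable at this depth.

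Across the 33 tested kinesins other than KIFC1, 25 log2 fold changes were negative (75.8%), where 47.9% of all genes were negative, and the median was -0.08, where that of all genes was 0.01. The count depended on 1 library, since 18 of the 33 were negative without KIFC1 siRNA replicate 2. Their summed level was 3957, 3938 and 4309 CPM in control and 3729, 3500 and 4190 CPM in KIFC1 siRNA libraries. These ranges overlapped, with means of 4068 ± 209 and 3806 ± 351 CPM, a difference of -6.44%. By role, the summed transport kinesins differed by -8.55%. KIF6 was the single tested member whose 95% interval reached a 2-fold rise, so a rise of that size in the other tested kinesins lay outside their intervals.

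**Figure D2:**
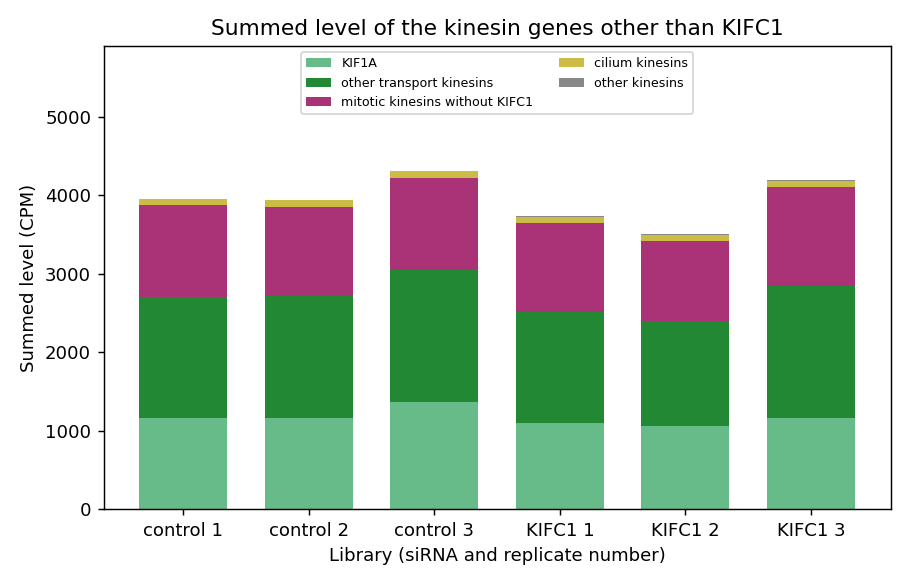
Summed level (CPM, axis from 0) of the kinesin genes other than KIFC1 in each library, stacked by role with KIF1A shown apart. The bars reach 3938 to 4309 CPM in control and 3500 to 4190 CPM in KIFC1 siRNA libraries, and KIF1A makes up 27.8% to 31.6% of each.

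Motors act with light chains, adaptors and spindle partners. A list of 34 genes, which held such partners and the motors CENPE and STARD9, was tested in full. None passed in either direction in edgeR, with or without the replicate block, and 13 log2 fold changes were positive and 21 negative, with a median of -0.05. At an unadjusted p under 0.05 without the block, 1 of the 34 was lower, against 4.55% of all genes, and 0 were higher, against 4.72%. That gene was PRC1, the antiparallel microtubule bundler that recruits KIF4A to the midzone. It read 144, 141 and 143 CPM in control and 130, 115 and 123 CPM in KIFC1 siRNA libraries, lower without overlap at -0.22 ± 0.10. Its unadjusted p was 0.0466 in edgeR, and its adjusted p-values were 0.526 and, with the block, 0.130. PRC1, KLC1, KLC2 and NUSAP1 were the 4 of 34 lower without overlap, against 7.51% of all genes, the last 3 named after their values were seen. CENPE, the kinetochore motor of chromosome congression, and STARD9, a centrosomal kinesin, were likewise named after their values were seen, with log2 fold changes of -0.06 ± 0.18 and -0.31 ± 0.24 (adjusted p = 0.967 and 0.795 in edgeR). The 4 kinesin light chains had a median of -0.05, the 13 cargo adaptors -0.06 and the 13 mitotic partners -0.03.

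A 7-base word, GAGATCT, was looked at in the 3′ untranslated regions (UTRs) because an earlier scan of these same libraries had picked it, so its counts are a description and support nothing. It occurs once in the KIFC1 transcript, in the coding sequence at bases 1550 to 1556. The UTR word occurred in 3 of the 33 tested kinesins (9.09%), KIF1B, KIF3B and KIF6, and in 8.97% of 12970 tested genes with a UTR of at least 50 bases. Another word, GCAACC, was counted in the same UTRs, likewise as a description. It occurred in 11 of the 33 kinesins (33.3%) and in 23.2% of those genes. The 30 bases around each GAGATCT, from GENCODE transcripts on GRCh38, are given with that word in capitals. These sites were picked for the word, so that they share it is no result.
KIFC1 coding sequence, chr6:33405471-33405500, plus strand, exon 7: caagctacgtaGAGATCTacaatgagactg
KIF1B 3′ UTR, chr1:10380089-10380118, plus strand, exon 49: aactgtctcttGAGATCTaaaaacaagatg
KIF3B 3′ UTR, chr20:32333053-32333082, plus strand, exon 9: tctgcaaaatgGAGATCTgttgtccagcgg
KIF6 3′ UTR, chr6:39332743-39332772, minus strand, exon 23: agcatgctctgGAGATCTtcagagggttac
KIF1B and KIF3B were called lower with the replicate block, KIF6 had a positive log2 fold change, and KIF21A was called lower with the block and has no such word in its UTR. The sequence of the siRNA was not used here.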

How the data were processed

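The authors deposited raw counts for 28395 NCBI gene IDs, made with HISAT2 2.2.1 on GRCh38 and featureCounts 2.0.8 per the labels and methods. Strand, multiple placements and the annotation used in counting are not given in the sources used here. Symbols were matched for 27745 IDs, and the 650 others held 0.0618% of the counts. Genes were kept by filterByExpr, with KIFC1 kept as the targeted gene, and the quasi-likelihood test of edgeR 4.0.16 (robust, TMM, R 4.3.3) was run on these 14777 genes, with p-values adjusted by Benjamini-Hochberg over all of them and a threshold of 0.05. DESeq2 1.42.0 (the study used 1.46.0) and limma 3.58.1 were alternatives among 13 in all, which the closing section lists by effect. The replicate numbers come from the sample titles. Correlations were taken on log CPM after each gene's group mean was subtracted. They were 0.313 to 0.385 for libraries with the same number and -0.315 to -0.0609 for others. Deviations cancel out within a group, so positive values for the same number push the others negative. A fit with the number as a block was also made. SE is the absolute log2 fold change over the square root of F. Intervals for counts and floors of 3 reads cover counting error only.

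Members, roles and lists were chosen with earlier results of these data known. Members were named if they were kinesin-14 or tested mitotic genes, if they had an unadjusted p or a blocked adjusted p under 0.05, if they were among the 5 largest or 5 smallest log2 fold changes at a mean log2 CPM of at least 2, if they were among the 5 highest levels per length, or if they were not tested. Transcripts came from GENCODE 44. Copies were searched as 32-base words on 261 alternate sequences. Figures were drawn with matplotlib 3.10.9 and tables with pandas 2.3.3 under Python 3.11.15, and exact intervals came from scipy 1.17.1. A marker gene is not reported here.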

Additional observations from a re-analysis of the deposited data

How the results depend on the processing

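For single kinesins other than KIFC1 under 13 alternatives, 402 values kept their direction and their side of the threshold, 6 became significant and 21 reversed. KIFC1 was called with no filter on low counts (log2 fold change -3.66, adjusted p = 0.00412), with limma-voom (-3.14, 0.0445) and with the replicate block (-3.65, 0.00459), and ran from -4.03 to -3.12 when each library was left out. Kinesins called lower, with KIFC1 counted, numbered 1 with no filter, 1 with limma-voom, 4 with the block and 0 to 3 when each library was left out. None was called higher in any of the 13 alternatives. Over all genes, 121 were higher and 144 lower with no filter, 125 and 145 with DESeq2, 407 and 454 with the block, and 9 to 194 higher and 15 to 274 lower when each library was left out. KIFC3 was at -0.0077 with limma-voom. When each library was left out, log2 fold changes crossed 0 for KIF5A (-0.27 to 0.088), KIF13B (-0.21 to 0.020), KIF1C (-0.093 to 0.026), KIF21B (-0.15 to 0.089), KIFC3 (-0.20 to 0.13), KIF15 (-0.27 to 0.018), KIF27 (-0.40 to 0.00037), KIF2A (-0.23 to 0.090), KIF4A (-0.12 to 0.027), KIF20B (-0.10 to 0.35), KIF5B (-0.10 to 0.25) and KIFC2 (-0.45 to 0.049). The cause was not tested. Apart from KIFC1, KIF3B, KIF21A and KIF1B, the block changed no member's call.

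With 3 libraries a group, 1 siRNA and 1 cell line, changes smaller than the intervals given cannot be seen. The reads of KIFC1 are too few for a precise fold.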
